A study of Mus musculus with 37 samples.

Results

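The cytosolic ribosomal protein genes code for the proteins of the ribosomes that translate messenger RNA in the cytoplasm. They were followed here in RNA-seq of mouse embryos at the 1-cell and 2-cell stages. Members were chosen by symbol, as Rpl or Rps followed by a digit plus Rplp0, Rplp1, Rplp2 and Rpsa. The 10 symbols of the Rps6k kinase family and 3 pseudogene symbols were left out. This gave 86 of the 23235 genes of the table, of which 52 are named for the large (60S) subunit and 33 for the small (40S) subunit. The remaining member, Rps19bp1, matches by its symbol alone, since it codes for a protein that binds Rps19 and is not part of the ribosome. The small subunit genes counted here include Rps4y2, which RefSeq lists as Rps4l, a transcribed pseudogene.

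The series held 37 mouse samples, of which 32 were DNase-seq and 5 were RNA-seq. The RNA-seq libraries came from embryos made by in vitro fertilization and labelled as BDF1 oocyte with BDF1 sperm, with oocytes of superovulated BDF1 females 8 weeks old. The growth protocol names JF1 males for stages after the 1-cell stage, which differs from these strain labels. One library was made from 20 embryos at the 1-cell stage, 12 h after fertilization, and its labels name no siRNA. The siControl libraries were made from 10 and 16 embryos at the 2-cell stage, 30 h after fertilization. The Nfya-KD libraries, also at 30 h, came from 10 embryos given siNfya-1 and 13 embryos given siNfya-2. The labels do not say whether the 2 names stand for different siRNA sequences. Every library was a pool, and no label places the pools in separate fertilizations, so a p-value reflects the spread among these pools alone, which may be technical. The 1-cell and siControl embryos differ in stage and in injection, and these cannot be told apart.

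Values were deposited as FPKM, fragment counts scaled to transcript length and to the mapped fragments of each library. Summed FPKM over all genes was 243441 to 260569 in the libraries numbered 1 and 417931 to 457684 in the 1-cell library and those numbered 2. Read depth, inferred from the smallest values and relative to siControl 1, was 0.749 to 1.02. The 7 oocyte and embryo markers were all at or above 1 FPKM in every library, and 4 of 5 2-cell markers were so in each 2-cell library, with summed levels of 243 to 513 against 6.40 in the 1-cell library. Of 13 cumulus and granulosa markers, 1 reached 1 FPKM in each library, with summed levels of 3.98 to 7.03, and of 6 sperm markers 1 or 2 did, with summed levels of 3.41 to 12.9. The libraries numbered 2 stood apart from those numbered 1 in the members' levels, so the main results are given by number as well.

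A ribosome joins a small subunit, which reads the messenger RNA, to a large subunit, which forms the peptide bonds. Messenger RNAs of ribosomal proteins are among the most abundant in growing cells, and most begin with a run of pyrimidines, the TOP motif, through which the mTOR pathway and Larp1 control their translation. The egg carries maternal ribosomes and RNA, and in the mouse the main wave of embryonic transcription starts at the 2-cell stage. Nfya is the DNA-binding subunit of NF-Y, which binds the CCAAT sequence found in many promoters.

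The promoter stretches below belong to members named in the following results. Rps19 and Rpl9 had the largest stage differences on the log2(FPKM + 1) scale among members with at least 5 FPKM at either stage, and Rpl41, Rplp2 and Rplp0 were among the most abundant members. For Rpl26 and Rpl10a both knockdown libraries lay above both control libraries, as they did for 6.98% of members and 8.27% of all genes tested. Rps15a stood at 11.2 FPKM at the 1-cell stage and at 6.02 and 12.9 in siControl, unlike most members. Each runs 5′ to 3′ on the gene's strand, from 140 bases before the annotated start through 12 bases after it, and comes from RefSeq on GRCm38.p6. Capitals mark CCAAT or its reverse ATTGG, and, near the start, a C followed by at least 4 letters that are C or T.
Rps19 (chr7:24884452-24884603, plus strand): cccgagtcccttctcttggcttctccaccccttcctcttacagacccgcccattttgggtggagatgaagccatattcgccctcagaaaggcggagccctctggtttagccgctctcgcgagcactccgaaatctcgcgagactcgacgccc
Rpl9 (chr5:65391420-65391571, minus strand): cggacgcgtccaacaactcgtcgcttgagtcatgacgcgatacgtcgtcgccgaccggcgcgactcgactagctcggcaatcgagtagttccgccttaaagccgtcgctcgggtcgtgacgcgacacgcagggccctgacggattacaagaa
Rpl41 (chr10:128549157-128549308, minus strand): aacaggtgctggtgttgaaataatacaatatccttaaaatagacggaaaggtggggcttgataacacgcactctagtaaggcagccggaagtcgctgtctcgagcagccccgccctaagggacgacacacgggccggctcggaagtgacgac
Rplp2 (chr7:141447511-141447662, plus strand): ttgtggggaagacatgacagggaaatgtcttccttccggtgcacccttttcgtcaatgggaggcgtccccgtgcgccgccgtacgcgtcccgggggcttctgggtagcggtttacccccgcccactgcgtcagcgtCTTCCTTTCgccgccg
Rplp0 (chr5:115559327-115559478, plus strand): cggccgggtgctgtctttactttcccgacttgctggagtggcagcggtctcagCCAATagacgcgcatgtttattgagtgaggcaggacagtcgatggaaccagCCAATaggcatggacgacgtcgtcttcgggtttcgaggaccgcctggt
Rpl26 (chr11:68901426-68901577, plus strand): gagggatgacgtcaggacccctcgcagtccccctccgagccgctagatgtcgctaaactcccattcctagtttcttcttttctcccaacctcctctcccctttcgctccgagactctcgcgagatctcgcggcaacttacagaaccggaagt
Rpl10a (chr17:28328331-28328482, plus strand): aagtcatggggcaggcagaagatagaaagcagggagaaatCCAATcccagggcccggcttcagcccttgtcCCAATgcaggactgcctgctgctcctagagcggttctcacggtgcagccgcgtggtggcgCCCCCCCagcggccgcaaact
Rps15a (chr7:118116136-118116287, minus strand): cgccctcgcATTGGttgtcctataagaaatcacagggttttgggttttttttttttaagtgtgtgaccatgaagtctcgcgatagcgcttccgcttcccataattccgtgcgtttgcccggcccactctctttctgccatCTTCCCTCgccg

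Positions are counted from 1 at the start, with negative numbers before it. CCAAT began at -87 and -36 in Rplp0 and at -100 and -69 in Rpl10a, and ATTGG began at -131 in Rps15a. Of these 8 stretches, the other 5 held neither. A C followed by at least 4 C or T letters, searched within 10 bases of the start, ran for 9 bases from -4 in Rplp2, for 7 bases from -9 in Rpl10a and for 8 bases from 1 in Rps15a. RefSeq lists 3 starts for Rps19 and 2 for Rpl10a, and 1 of each is shown. Over all 32851 promoters of 250 bases before to 50 after a start, 37.4% held CCAAT or ATTGG, 30.7% held the pyrimidine run and 84.6% held GGAA or TTCC, the core of ETS factor sites, at least 2 times. Only 65 of 86 members, 75.6%, had a promoter in the table, under the minimum of 80%, so the check of these motifs over the members is void.

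Ribosomal protein genes were detected broadly but at very different levels. Of the 86 members, 83 were at or above 1 FPKM in the 1-cell library, and all 86 were in each 2-cell library. The 3 below it at the 1-cell stage were Rpl3l, listed at 0, Rpl26 at 0.000631 and Rpl10l at 0.579. Median member level was 27.4 FPKM in the 1-cell library, 97.0 and 219 in siControl 1 and 2, and 112 and 229 in Nfya-KD 1 and 2. Among the genes at or above 1 FPKM, the 83 members at that level in the 1-cell library had a median percentile of 73.8. The 86 members had a median percentile of 96.4 to 96.9 in the 2-cell libraries. At the 1-cell stage 10 members exceeded 100 FPKM, and 56 did so in the siControl mean.

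The highest siControl means belonged to Rpl41, Rplp2, Rps27l, Rplp0 and Rps26. Rpl41, the smallest ribosomal protein, stood at 101 FPKM in the 1-cell library, 1228 and 6121 in siControl 1 and 2, and 1489 and 5758 in Nfya-KD 1 and 2. Rplp2, a protein of the stalk that recruits elongation factors, stood at 384 FPKM in the 1-cell library, 752 and 2242 in siControl and 867 and 2413 in Nfya-KD. Both were lowest in the 1-cell library and highest in the libraries numbered 2, and the knockdown and control libraries interleaved. The lowest siControl means belonged to Rpl26, Rpl3l, Rps15a, Rpl22l1 and Rpl7l1, of which Rpl3l, Rpl22l1 and Rpl7l1 are paralogues of other members. Rpl26, a protein of the large subunit near the exit of the peptide tunnel, is itself no paralogue. Ribosomal protein genes have many processed pseudogenes of near-identical sequence, and how reads matching several copies were assigned is not stated in the labels, so the level of any member may hold or lack reads of a copy.

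**Figure D1:**
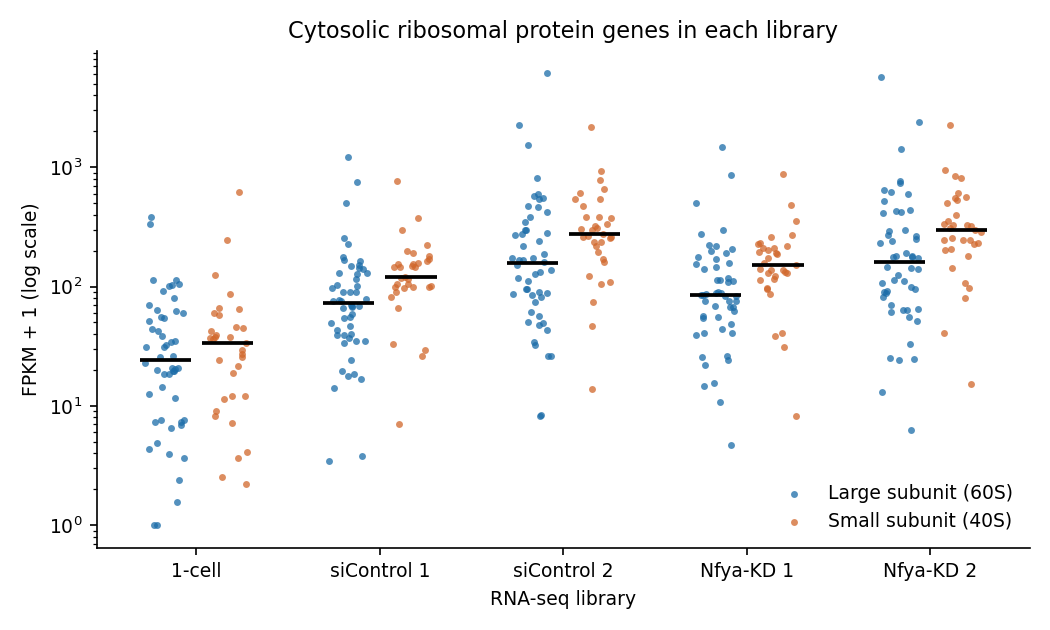
Level of each ribosomal protein gene, as FPKM + 1 on a log axis, in each of the 5 libraries, by subunit, without Rps19bp1; each point is a gene and the bar is the median. The median over all 86 members was 27.4 FPKM in the 1-cell library and 97.0 to 229 in the 2-cell libraries.

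The spread among members was wide, with an SD of log2(FPKM + 1) of 1.86 in the 1-cell library and 1.42 to 1.68 in the 2-cell libraries. The order of the members differed more between stages than between knockdown and control. As a description over the 86 members, which share libraries and gene lengths, Spearman's rho was 0.506 to 0.520 between the 1-cell library and the 2-cell libraries. It was 0.920 between siControl 1 and 2 and 0.922 between Nfya-KD 1 and 2. With the same number it was 0.982 between siControl 1 and Nfya-KD 1 and 0.991 between siControl 2 and Nfya-KD 2. Across the numbers it was 0.934 between siControl 1 and Nfya-KD 2 and 0.905 between siControl 2 and Nfya-KD 1.

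The first comparison set the 2-cell siControl embryos beside the 1-cell embryos. Ribosomal protein genes took 1.03% of summed FPKM in the 1-cell library and 4.70% and 7.07% in siControl 1 and 2. The large subunit genes took 0.579% at the 1-cell stage and 2.63% and 4.34% in siControl 1 and 2. The small subunit genes took 0.447% at the 1-cell stage and 2.05% and 2.71% in siControl 1 and 2. Both subunits therefore had a higher share in each siControl library than in the 1-cell library. The 76 mitochondrial ribosomal protein genes, whose products form the separate ribosome of the mitochondrion, took 0.528% against 0.461% and 0.502%, so their share was not higher in either siControl library. These shares are relative within each library, so a rise in the members' RNA and a fall in other RNA cannot be told apart.

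**Figure D2:**
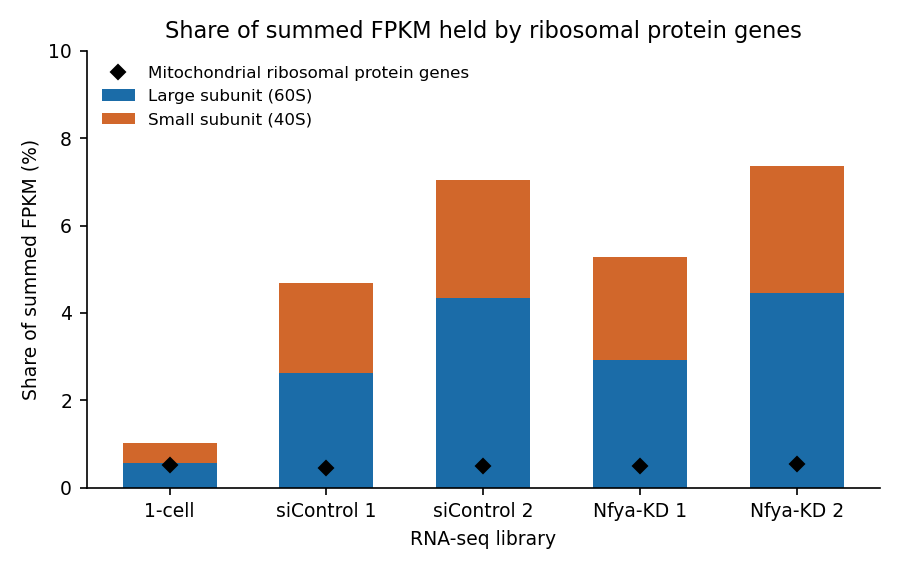
Share of summed FPKM, in percent, in each of the 5 libraries; stacked bars from 0 are the large and small subunit genes, diamonds are the mitochondrial ribosomal protein genes, and each bar is 1 library. The members' share was 1.03% in the 1-cell library and 4.70% to 7.38% in the 2-cell libraries, while the mitochondrial share was 0.461% to 0.543%.

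Gene by gene, the median difference between siControl and the 1-cell library was 2.35 on the log2(FPKM + 1) scale. It was 1.74 with siControl 1 alone and 2.85 with siControl 2 alone, while the median over the 11993 genes compared was -0.45. Of the 86 members, 82 were above 0, against 4790 of the 11993 genes and 29 of the 76 mitochondrial ribosomal protein genes. By the siControl mean, 71 members (82.6%) were at least 2-fold higher, against 21.5% of all genes, and 1 member (1.16%) was at least 2-fold lower, against 33.0% of all genes. In both siControl libraries taken singly, 60 members (69.8%) were at least 2-fold higher, against 16.0% of all genes, and 1 was lower, against 27.2%. Of the mitochondrial ribosomal protein genes, 22 of 76 were 2-fold higher by the mean and 25 were 2-fold lower. Their median was -0.47, and it was -0.71 with siControl 1 alone and -0.22 with siControl 2 alone.

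With 1 library at the 1-cell stage there was no replicate of that stage. A limma fit over all 5 libraries, which assumes that the 1-cell library varies like the others, called 32 of 86 members higher (37.2%) at an adjusted p of 0.05, against 11.3% of the 12264 genes tested. It called 0 members lower, against 21.6% of genes. Rescaling each library to the same sum moved the median of all genes to 0.00 or just below and that of the members to 2.72, with 76 members 2-fold higher. Rescaling by the median ratio moved these medians to 0.24 and 3.04, with 82 members 2-fold higher and 0 lower.

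On the log2(FPKM + 1) scale, and among members with at least 5 FPKM at either stage, the largest difference belonged to Rps19, a small subunit protein needed for maturation of the subunit and altered in Diamond-Blackfan anaemia in humans. Rps19 stood at 2.68 FPKM in the 1-cell library and at 299.6 and 472 in siControl, 144-fold higher by the mean and 6.68 higher on the log2 scale (SE 0.64, limma adjusted p = 0.015 with pooled spread). Rpl9 stood at 1.38 FPKM in the 1-cell library and at 74.6 and 166 in siControl, a log2 difference of 5.56. Rpl23a, which lies at the exit of the peptide tunnel, stood at 5.59 FPKM and at 163 and 299, a log2 difference of 5.07. For all 3 genes both siControl libraries were far above the 1-cell library. Rps27a is made as a fusion with ubiquitin and stood at 3.14 FPKM at the 1-cell stage and at 99.2 and 258 in siControl. Rps27 stood at 6.18 FPKM and at 162 and 377.

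Against these, 4 members were lower in the siControl mean on the log2 scale. Rpl17, a protein of the tunnel exit, stood at 333 FPKM in the 1-cell library and at 89.4 and 159 in siControl, a log2 difference of -1.47 (SE 0.68, limma adjusted p = 0.15 with pooled spread), and was lower in both siControl libraries. Rps15a stood at 11.2 FPKM and at 6.02 and 12.9. Rpl36 stood at 50.7 FPKM and at 38.7 and 60.6. For Rps15a and Rpl36 the 1-cell value lay between the siControl libraries.

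**Figure D3:**
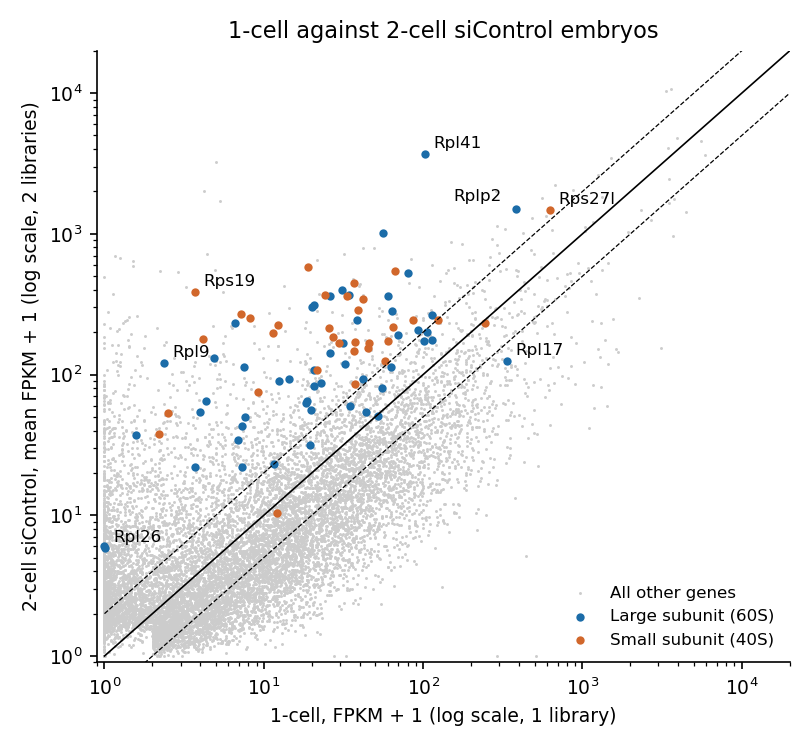
Mean siControl FPKM + 1 at the 2-cell stage against FPKM + 1 in the 1-cell library, both on log axes, with 1 point per gene; grey points are all other genes and coloured points the ribosomal protein genes by subunit, without Rps19bp1; the solid line is equality and dashed lines are 2-fold. Most members lie above the line of equality, and Rpl17 lies furthest below it. On the log2 scale 82 of 86 members were above 0, against 4790 of the 11993 genes compared.

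The counts by role that follow use the siControl mean unless stated otherwise and describe small groups. They are to be read against 82.6% of all members and 21.5% of all genes 2-fold higher. Differences between roles were not tested. The P stalk genes were 2-fold higher at the 2-cell stage in 4 of 4 cases, with a median log2 difference of 3.73. In both siControl libraries taken singly, 3 of 4 were. Rplp0, which anchors the stalk on the large subunit, stood at 55.0 FPKM in the 1-cell library and at 496 and 1535 in siControl. Rplp1, which pairs with Rplp2 in the stalk, stood at 30.0 FPKM and at 254 and 545. Rpl12, which lies at the base of the stalk, stood at 3.32 FPKM and at 48.1 and 80.5. Of these 4 genes, Rpl12 and Rplp1 passed the pooled-spread limma fit. Rplp2 was the most abundant member after Rps27l in the 1-cell library.

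The 5S ribonucleoprotein genes had the smallest median difference of the role groups, 0.65 on the log2 scale. Rpl5 and Rpl11 join the 5S ribosomal RNA to the large subunit, and outside the ribosome they bind Mdm2, the regulator of p53. Rpl5 stood at 18.5 FPKM in the 1-cell library and at 18.7 and 42.6 in siControl, a log2 difference of 0.59. Rpl11 stood at 101 FPKM and at 126 and 219, a log2 difference of 0.71. In Rpl5 the siControl 1 value lay next to the 1-cell value.

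Around the peptidyl transferase centre, Rpl3, Rpl8 and Rpl10 were all at least 2-fold higher by the mean, with a median log2 difference of 2.31. In both siControl libraries taken singly, 2 of these 3 were, and Rpl10 was 0.55 higher on the log2 scale in siControl 1. Rpl3 stood at 5.87 FPKM in the 1-cell library and at 33.0 and 33.4 in siControl, with nearly equal control libraries. Of the 7 genes of the exit tunnel, 5 were 2-fold higher and 1, Rpl17, was 2-fold lower, with a median of 2.42.

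In the small subunit, the 6 genes of the decoding site and messenger RNA path were all 2-fold higher, with a median log2 difference of 3.47. Rps3, at the entry of the messenger RNA channel, stood at 1.51 FPKM in the 1-cell library and at 32.3 and 72.6 in siControl. Rps26, at the exit of the channel, stood at 18.0 FPKM and at 377 and 778. Both were higher in each siControl library. Rpsa, also known as the laminin receptor, stood at 1.21 FPKM and at 28.4 and 45.6. Rps6, the substrate of the S6 kinases, stood at 35.6 FPKM and at 98.8 and 194, a log2 difference of 1.93. Of 13 members altered in Diamond-Blackfan anaemia in humans, 10 (76.9%) were 2-fold higher, near the share over all members, with a median of 1.76. In both siControl libraries taken singly, 8 (61.5%) were, against 69.8% of all members.

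Several members have a paralogue, and the balance within a pair differed between stages. Rps27l, a paralogue of Rps27 and in human cells a target of p53, stood at 622 FPKM in the 1-cell library, the highest of all members there, and at 771 and 2188 in siControl. It held 99.0% of the summed FPKM of the pair at the 1-cell stage and 82.6% and 85.3% in siControl. Rpl39l, known in the mouse for its role in the male germ line, held 48.8% of its pair with Rpl39 at the 1-cell stage and 9.57% and 16.7% in siControl. Rpl7l1, a homologue of Rpl7, held 32.0% of its pair at the 1-cell stage and 20.6% and 17.5% in siControl. In these 3 pairs the paralogue's share was higher in the 1-cell library than in any 2-cell library.

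In other pairs the paralogue's share was lower at the 1-cell stage. Rpl10l, best known from the testis, held 0.839% of its pair with Rpl10 in the 1-cell library and 18.7% and 15.2% in siControl. Rpl22l1 held 20.1% of its pair with Rpl22 and then 55.9% and 44.9%. Rpl3l, known from muscle, was listed at 0 in the 1-cell library and held 7.86% and 18.1% of its pair with Rpl3 in siControl. For each of these pairs every 2-cell library lay above the 1-cell library. Rpl36al, which held 75.2% of its pair with Rpl36a at the 1-cell stage and 65.4% and 86.9% in siControl, did not separate the stages. The deposited symbol Rps4y2 stood at 8.14 FPKM in the 1-cell library and at 25.4 and 122 in siControl, and held 18.2% of its pair with Rps4x and then 28.2% and 53.8%. RefSeq lists it as Rps4l, a transcribed pseudogene. Shares within pairs can depend on how reads shared by the copies were assigned. The near-identical alpha-globin genes Hba-a1 and Hba-a2 read 19.6 and 0.0237 FPKM in siControl 1 but 0.421 and 79.8 in siControl 2, and the part of read assignment in this was not tested.

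**Figure D4:**
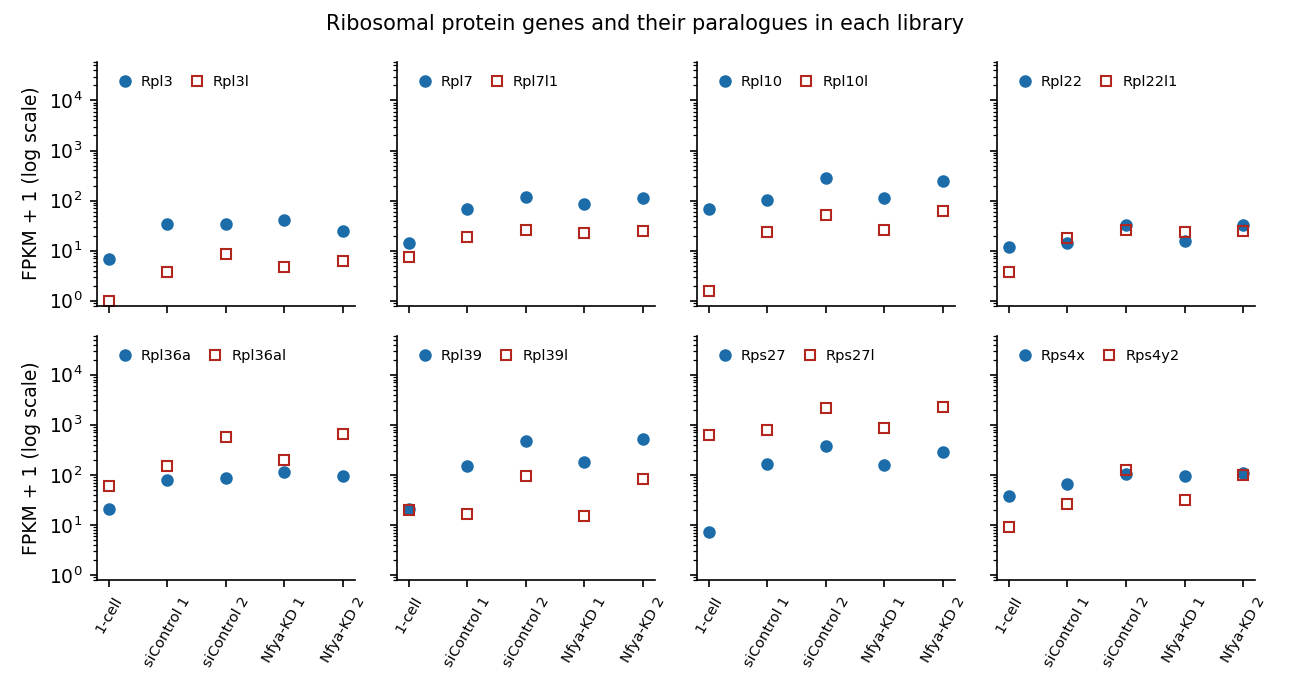
FPKM + 1 on a log axis of 8 ribosomal protein genes (filled circles) and their paralogues (open squares) in each of the 5 libraries, with 1 panel per pair. Rps27l lies above Rps27 in every library, and Rpl10l and Rpl3l lie far below their partners at the 1-cell stage.

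The second comparison asked how the members responded to knockdown of Nfya at the 2-cell stage. Nfya itself read 10.3 and 15.5 FPKM in the controls and 3.28 and 4.48 in the knockdown, so the groups did not overlap. Its log2 difference was -1.50 (SE 0.33), and -1.40 and -1.59 within the numbers 1 and 2. The limma fit gave Nfya an unadjusted p of 0.0061, and Nfya itself was not called at an adjusted p of 0.05. The members took 4.70% and 7.07% of summed FPKM in siControl and 5.31% and 7.38% in Nfya-KD. The means were 5.89% ± 1.67 (SD, n = 2) and 6.34% ± 1.47 (SD, n = 2), and an exact permutation test, two-sided, gave p = 0.667, where the smallest p it allows is 0.333.

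No member passed the test, and 0 of 86 members were called by limma at an adjusted p of 0.05, against 0% of the 10533 genes tested. At an unadjusted p under 0.05 there were 0 members and 139 of all genes, of which 92 were lower and 47 higher in the knockdown. This fit did not model the library number, so its SEs and p-values include the difference between the numbers. A limma fit with the number as a block also called 0 members, and called 11 of all genes. There 8 members had an unadjusted p under 0.05, and the count over all genes at that p is not given here. The median member difference between knockdown and control was 0.17 on the log2 scale, against 0.01 over all genes tested, and single members ranged from -0.24 for Rpl13 to 1.14 for Rpl26. Of the 86 members, 75 (87.2%) were above 0, against 52.4% of all genes. Within number 1 the median was 0.27 with 81 members above 0, and within number 2 it was 0.05 with 54 above 0. Over all 10533 genes tested these medians were 0.04 and -0.02, with 5979 and 4929 genes above 0. In both numbers 52 members (60.5%) were higher, against 29.5% of all genes, and 3 members (3.49%) were lower, against 25.9%. The mitochondrial ribosomal protein genes had a median of 0.13, with 53 of 74 above 0, and medians of 0.22 and 0.07 within numbers 1 and 2.

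Leaving out 1 library makes the numbers 1 and 2 unequal between the groups, and the members' levels differed between the numbers. The median was then -0.43 without siControl 1, with 8 members above 0, and -0.32 without Nfya-KD 2, with 16 above 0. It was 0.71 without siControl 2 and 0.63 without Nfya-KD 1, with 85 above 0 in each case.

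Members whose knockdown libraries both lay above both control libraries numbered 6 (6.98%), against 8.27% of all genes, and 0 lay below, against 8.61%. The 6 were Rpl10a, Rpl26, Rpl36, Rpl36a, Rps12 and Rps18. Rpl26, whose human form binds the p53 messenger RNA, read 2.46 and 7.26 FPKM in the controls and 9.71 and 12.0 in the knockdown, a log2 difference of 1.14 (SE 0.48, limma adjusted p = 1.00). It was 1.63 higher within number 1 and 0.66 higher within number 2. Rpl36 read 38.7 and 60.6 FPKM in the controls and 61.4 and 87.0 in the knockdown, a difference of 0.58 (SE 0.46). For Rpl36 the lowest knockdown value lay next to the highest control value. Rpl10a, with CCAAT at 2 positions of the stretch above, read 38.1 and 46.2 FPKM in the controls and 53.4 and 63.0 in the knockdown, a difference of 0.46 (SE 0.39). Rps18 read 105 and 108 FPKM in the controls and 139.8 and 142 in the knockdown, and Rps12 read 147 and 159 FPKM and then 210.4 and 202.

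Rplp0, the other gene shown with CCAAT at 2 positions, read 496 and 1535 FPKM in the controls and 501 and 1417 in the knockdown, a difference of -0.05 (SE 1.05), so its groups overlapped fully. The 3 members lower in both numbers were Rpl13, Rpl39l and Rps27. Rps27 read 162 and 377 FPKM in the controls and 156 and 287 in the knockdown. Rpl13 read 114 and 298 FPKM and then 83.2 and 290.5. In both genes the knockdown and control libraries interleaved.

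**Figure D5:**
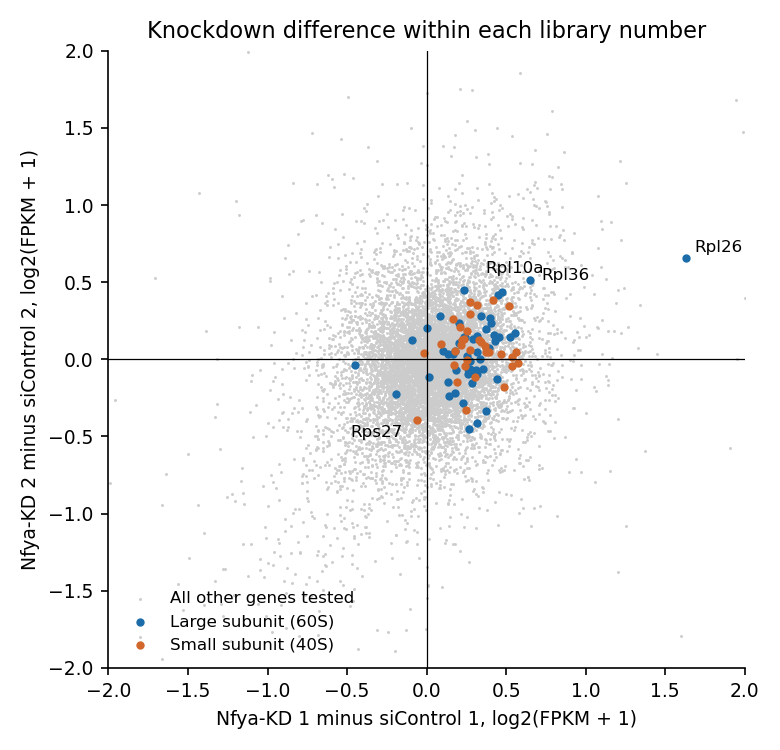
Difference of log2(FPKM + 1) between Nfya-KD and siControl within number 2 against the same within number 1, with 1 point per gene tested; ribosomal protein genes are coloured by subunit, without Rps19bp1. Of 86 members, 52 lie above 0 on both axes and 3 below 0 on both, and 41 genes outside -2 to 2 on either axis are not drawn.

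The libraries numbered 2 had higher ribosomal protein levels than those numbered 1 in both groups. The median member difference between the numbers was 1.14 on the log2 scale in siControl and 0.93 in Nfya-KD, against 0.20 and 0.14 over all genes. At least 2-fold higher in number 2 in both groups were 40 members (46.5%), against 10.3% of all genes, and 82 members (95.3%) were higher in both groups, against 50.3% of all genes. The mitochondrial ribosomal protein genes had medians of 0.80 and 0.64, with 27.0% at least 2-fold higher and 78.4% higher in both groups. The size of the difference varied among members, and Rps18 stood at 105 and 108 FPKM in siControl 1 and 2. Ribosomal RNA precursor, listed as Rn45s, stood at 6007 and 4232 FPKM in the libraries numbered 1, at 1315 and 1179 in those numbered 2, and at 5892 in the 1-cell library. The summed level of 3 erythroid markers was 19.6 and 21.6 FPKM in the libraries numbered 1, 80.3 and 58.7 in those numbered 2 and 0.340 in the 1-cell library, with Hbb-b1 at 0 in all. The numbers also differ in embryos per pool and in summed FPKM, and the part of any of these in the members' levels was not tested.

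Genes that work beside the members were also measured, and the stage counts and medians of these lists use the siControl mean. Of the ribosomal proteins outside the symbol rule, Fau, which gives Rps30, stood at 205 FPKM in the 1-cell library and at 216 and 546 in siControl. Gnb2l1, the scaffold protein Rack1 of the small subunit, stood at 57.1 FPKM and at 11.7 and 23.9, a log2 difference of -1.71. Gnb2l1 was lower in both siControl libraries than in the 1-cell library, and Fau was higher in both.

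Of 15 genes whose messenger RNAs carry the TOP motif but code for no ribosomal protein, 5 (33.3%) were 2-fold higher and 4 (26.7%) were 2-fold lower at the 2-cell stage, near the shares over all genes of 21.5% and 33.0%, with a median of -0.23. Pabpc1, the poly(A)-binding protein, stood at 1.39 FPKM in the 1-cell library and at 39.5 and 62.2 in siControl, and Npm1, a nucleolar chaperone, at 1127 FPKM and at 389 and 536. Of 13 measured regulators of the TOP and S6 kinase pathway, 3 (23.1%) were 2-fold higher and 3 (23.1%) were 2-fold lower, also near those shares, with a median of -0.41. Among them Larp1, which binds TOP messenger RNAs, stood at 0.778 FPKM in the 1-cell library and at 3.74 and 3.43 in siControl. Eif4ebp1, the mTOR-controlled repressor of cap-dependent translation, stood at 2.83 FPKM and at 33.9 and 33.7. Both are among the 3 higher, while Larp4b, among the 3 lower, stood at 61.8 FPKM and at 20.9 and 13.5. Of 12 chaperones and importers of ribosomal proteins, 5 (41.7%) were 2-fold higher and 2 (16.7%) were 2-fold lower, with a median of -0.06 against -0.45 over all genes. Tnpo1, an importer of ribosomal proteins into the nucleus and 1 of the 2 lower, stood at 69.5 FPKM and at 8.15 and 6.97. Among the 5 higher, Heatr3 stood at 1.60 FPKM and at 13.5 and 24.4. In the knockdown comparison 0 genes of these lists passed the limma test.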

How the data were processed

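The authors deposited FPKM per gene for 5 RNA-seq libraries in 1 table. Tools listed in the submitters' processing notes are Cufflinks 2.2.1, TopHat2 2.0.6 and Bowtie 0.12.9, with the build mm9. The RNA library preparation, strand and treatment of reads matching several genes are not given in the labels. Groups came from the labels. Members and gene lists were chosen with earlier results of these data known.

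Differences were computed on log2(FPKM + 1), which understates those of low genes. The knockdown test was limma 3.58.1 (R 4.3.3, eBayes with trend) over the 10533 genes that reached 1 FPKM in 2 or more of the 4 2-cell libraries, with Benjamini-Hochberg adjustment over them and a threshold of 0.05. It was also run on simulated data, where recovery of changed genes was required only at a spread smaller than the fitted spread of the members. That run therefore does not show what the test can call among the members. The stages were compared without a test over genes that reached 1 FPKM in any of the 3 libraries, with pooled-spread limma as an alternative. Relative depth came from ratios of values below 0.3 FPKM, and no counts were used, so no counting intervals are given. Shares and the exact permutation test used Python 3.11.15 and scipy 1.17.1.

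Named members were the 5 highest and the 5 lowest by siControl mean, those of smallest knockdown p with separated libraries, the 5 largest stage ratios each way among members with at least 5 FPKM in either stage, role groups and paralogue pairs. Rps18 and Rps12 came from the separated members, and Rpl13, Rpl39l and Rps27 were named as the full set of 3. Protein features and links to DNase-seq regions were not run, because protein sequences and mm9 gene positions were not used here. Some genes that the naming rule covers are not reported here.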

Additional observations from a re-analysis of the deposited data

How the results depend on the processing

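The members' results on stage kept their direction under every alternative run, with a median log2 difference of 1.74 to 2.85 and 60 to 80 members 2-fold higher when either siControl library was left out, against 71 with both. The count fell to 32 when the criterion was the pooled-spread limma fit in place of a fold. For the knockdown, 0 members were called under each alternative run, while the count over all genes, 0 in the fit reported, was 1 with a pseudocount of 0.1, 4 after scaling to equal sums and 4 after median-ratio scaling. It was 11 with the library number as a replicate block, where the members' median stayed at 0.17. In that blocked limma fit 8 members had an unadjusted p under 0.05. The count over all genes at that unadjusted p is not given here, so the 8 cannot be set against it. Leaving out 1 library gave 6 to 31 genes called, a members' median of -0.43 to 0.71 and 8 to 85 members above 0, where the arm left with a lone sample is assumed to vary like the other and the numbers are unequal between the groups, while within the numbers the members' medians were 0.27 and 0.05. The labels give no pairing beyond a shared number. Deviations from the group means correlated between same-numbered libraries at 0.744 over all genes and 0.916 over members, and with 2 libraries a group the deviations within a group are equal and opposite. Of 49 named members, 1 changed sign after scaling to equal sums and 7 to 35 did so when 1 library was left out. FPKM without counts gives no counting error, and 2 libraries a group limit what the knockdown test can call.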
